A study of Mus musculus with 6 samples.

Results

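The antiprotease genes of serpin clade A, the Serpina genes, were followed in mouse livers after an overdose of acetaminophen (APAP). The members were taken by name, as the rows of the count table for Serpina1a, Serpina1b, Serpina1c, Serpina1d, Serpina1e, Serpina3g, Serpina3k, Serpina3m, Serpina3n and Serpina6, which are 10 of 34745 genes. The mice were wild type (WT). Per the study's methods they were male C57BL/6J mice aged 8 to 10 weeks that were fasted for 12 hours before an intraperitoneal injection. One group received APAP at 300 mg/kg and was collected at 12 hours, and the other received saline. The labels list 3 livers per group, of which APAP livers 1 and 3 and 3 saline livers were read here. APAP liver 2 was not analysed here. The 3 control libraries are named WT1, WT2 and WT3. With the remaining columns named for APAP, these 3 were taken to be the saline livers, an assumption behind each fold change.

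Serpins are suicide inhibitors. A protease cuts the exposed reactive loop of the serpin, the serpin folds over, and both proteins stay locked together. The Serpina1 genes are the mouse copies of alpha-1-antitrypsin, the hepatocyte product that restrains neutrophil elastase in plasma and lung. The Serpina3 genes are the mouse relatives of alpha-1-antichymotrypsin, and Serpina3n is a well-known acute phase gene of liver and brain. Serpina6 encodes corticosteroid-binding globulin, a serpin fold that no longer inhibits proteases and instead carries glucocorticoids in plasma.

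Of the 10 members, 3 changed at an adjusted p under 0.05 (edgeR's quasi-likelihood test, Benjamini-Hochberg over 13734 genes). Serpina3n rose 5.92-fold and Serpina3m rose 3.10-fold, while Serpina6 fell by 5.69 on the log2 scale, a level 51.6-fold lower. The 3 calls are 30% of the members, beside 7.23% of all genes tested. By direction, 2 members were higher, beside 3.7% of all genes, and 1 was lower, beside 3.53%. All 10 members passed the filter on low counts. The fitted log2 fold change was above 0 for 5 members and below 0 for 5, and its median over the members was 0.30, beside 0.03 over all genes tested. The APAP and saline libraries did not overlap for 5 of the 10, beside 44.1% of all genes tested. At an unadjusted p under 0.05 and a fold change of at least 1.5, 5 members passed, Serpina1d and Serpina1e being added, beside 23.5% of all genes tested.

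**Figure D1:**
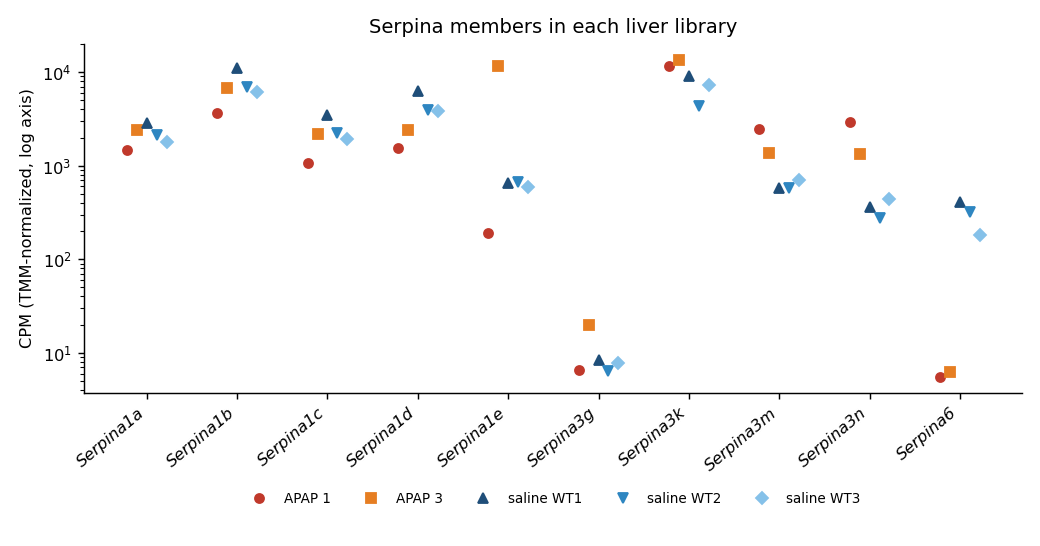
CPM (counts scaled to the TMM-normalized library size, log axis) of the 10 Serpina members, 1 point per library, with 2 APAP and 3 saline libraries. Serpina6 lies at 5.52 and 6.24 CPM in the APAP libraries against 183 to 412 CPM in saline, and Serpina1e spreads from 192 to 11519 CPM between the 2 APAP libraries.

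Several facts of the libraries touch these results. Total counts ran from 13378445 to 15976339 per library, and 3 counts, taken as the floor of detection, were worth 0.176 to 0.269 CPM (counting error only). The controls carried Xist, which silences an X chromosome in female cells, at 290, 914 and 882 CPM, whereas the APAP livers carried it at 0.764 and 1.73 CPM. The 4 Y-linked genes Ddx3y, Eif2s3y, Uty and Kdm5d were at 12.7 to 79.0 CPM in the APAP livers and at no more than 1 count in any saline library. These sex-linked levels go against a single sex in both groups, and treatment and sex therefore cannot be told apart in any comparison below. APAP 1 and APAP 3 also differed from each other in some genes that are male-biased in mouse liver, and the values are given beside Serpina1e. Of 8 hepatocyte markers, 1 (Apoa2) was called lower, beside 3.53% of all genes tested. The summed CPM of the 8 was 89909 and 140212 in the APAP livers and 141011 to 198619 in saline. The labelled tissue thus carried its defining genes in each library. In bulk liver, fewer cells of a type and less RNA per cell cannot be told apart. Nothing in the labels says whether a library came from 1 mouse or from pooled mice, so p-values measure the spread between these libraries.

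The 5 Serpina1 genes lie side by side on the minus strand of chromosome 12 (GRCm38). In the order of the chromosome they are Serpina1b (103728156 to 103830373), Serpina1d (103763594 to 103773592), Serpina1a (103853589 to 103863562), Serpina1c (103894926 to 103904887) and Serpina1e (103946931 to 103958975). The annotated span of Serpina1b encloses Serpina1d, but no exon is shared. An exon of the lncRNA B430119L08Rik overlaps Serpina1c, and without a stated strand setting its reads cannot be told apart from those of Serpina1c. A known point of difference between the paralogs is the reactive loop that meets the protease. The 81 bases that code for it, in the last exon of each gene's longest coding transcript (GENCODE M21), are shown because they hold the letters by which a read can be given to 1 paralog. Capitals mark the 18 positions at which the 5 genes are not all alike.
Serpina1a: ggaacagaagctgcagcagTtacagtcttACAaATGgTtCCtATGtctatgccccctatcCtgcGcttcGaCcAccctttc
Serpina1b: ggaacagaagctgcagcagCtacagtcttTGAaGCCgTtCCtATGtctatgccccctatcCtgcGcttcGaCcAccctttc
Serpina1c: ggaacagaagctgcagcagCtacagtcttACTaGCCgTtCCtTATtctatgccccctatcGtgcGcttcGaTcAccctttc
Serpina1d: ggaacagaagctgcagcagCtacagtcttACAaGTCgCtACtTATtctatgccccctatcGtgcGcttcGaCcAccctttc
Serpina1e: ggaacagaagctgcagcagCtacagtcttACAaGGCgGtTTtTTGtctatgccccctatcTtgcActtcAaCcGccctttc
From top to bottom these stretches lie at chr12:103853750-103853830, chr12:103728317-103728397, chr12:103895087-103895167, chr12:103763755-103763835 and chr12:103947093-103947173, and all are printed as the coding strand. Serpina1e stood furthest from the others, with 10 to 12 differences. Serpina1c and Serpina1d were the closest pair, with 5.

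Over whole transcripts the genes share long runs. Of the 50-base words of the longest coding transcript, 67.4% occurred in a transcript of another gene for Serpina1a, 35.8% for Serpina1b, 74.2% for Serpina1c, 50.9% for Serpina1d and 35.6% for Serpina1e. The closest gene of Serpina1a was Serpina1c, which held 57.5% of its words. With 100-base words the shares were 49.9%, 20.6%, 58.5%, 29.3% and 14.8%. The counts of single Serpina1 genes, above all Serpina1a and Serpina1c, are therefore uncertain, since the way in which reads with several matches were counted is not given in the sources used here. Both single genes and their sum are reported for this reason.

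The bases before the annotated start sites are alike as well, though not their distance from the start in Serpina1e. The RefSeq promoter table (GRCm38.p6) had an entry for 7 of the 10 members, among them all 5 Serpina1 genes. Within the 250 bases before each start lies a run of 75 bases that is nearly the same in the 5 genes, shown because Serpina1e carries it too and yet had another pattern over the libraries. Capitals mark GTTAAT, a core of the site bound by HNF1, a factor that drives hepatocyte genes.
Serpina1a (chr12:103863626-103863700): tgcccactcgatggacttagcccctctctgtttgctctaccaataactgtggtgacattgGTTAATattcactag
Serpina1b (chr12:103738201-103738275): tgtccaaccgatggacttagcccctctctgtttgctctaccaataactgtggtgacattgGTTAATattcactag
Serpina1c (chr12:103904963-103905037): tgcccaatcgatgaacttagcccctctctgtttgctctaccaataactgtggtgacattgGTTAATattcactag
Serpina1d (chr12:103773635-103773709): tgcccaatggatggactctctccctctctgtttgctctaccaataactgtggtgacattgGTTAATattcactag
Serpina1e (chr12:103956961-103957035): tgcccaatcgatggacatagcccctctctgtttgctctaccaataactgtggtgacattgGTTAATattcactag
The minus strand is printed. Serpina1e differed from Serpina1a and Serpina1c at 2 of the 75 bases, from Serpina1b at 3 and from Serpina1d at 6. The letters GTTAAT, searched on both strands of the 250 bases before the start, were in 5 of 5 Serpina1 promoters and in 6.43% of all 32851 entries. Relative to the annotated start they began at -21, -26, -27 and -16 in Serpina1a, Serpina1b, Serpina1c and Serpina1d. In Serpina1e they began at -78.

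Of the 5 antitrypsin genes, 0 passed edgeR's quasi-likelihood test after adjustment, beside 7.23% of all genes tested. At an unadjusted p under 0.05 with a fold change of at least 1.5, 2 passed, Serpina1d and Serpina1e, beside 23.5% of all genes tested. Serpina1b, the most abundant of them in saline by CPM, was at 3622 and 6691 CPM in APAP 1 and APAP 3 and at 10963, 6910 and 6121 CPM in WT1, WT2 and WT3. The saline range begins below the level of APAP 3, so the groups overlapped. The fitted log2 fold change was -0.63 (SE 0.46, adjusted p = 0.448). Serpina1a was at 1466 and 2382 CPM after APAP against 2888, 2103 and 1771 CPM in controls (log2 fold change -0.23, SE 0.37, adjusted p = 0.752). Serpina1c was at 1079 and 2180 CPM after APAP against 3473, 2242 and 1920 CPM in controls (log2 fold change -0.64, SE 0.44, adjusted p = 0.421). In both, APAP 3 lay within the saline range and APAP 1 below it.

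Serpina1d was the one antitrypsin gene whose groups were apart. It was at 1530 and 2425 CPM in the APAP livers and at 6319, 3949 and 3840 CPM in the saline livers, with means of 1978 ± 633 (SD, n = 2) and 4703 ± 1401 (SD, n = 3) CPM. Both APAP libraries lay below each saline library. The log2 fold change of -1.25 (SE 0.41) had an unadjusted p of 0.0193 and an adjusted p of 0.121 in the quasi-likelihood test. The call depended on the test, since edgeR's likelihood ratio test gave an adjusted p of 0.0282, its exact test 0.0314 and DESeq2 0.00476.

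Serpina1e differed most between the APAP livers of all the members. It was at 192 CPM in APAP 1 and at 11519 CPM in APAP 3, a ratio of 59.97 between livers of the same group. The saline libraries were close together at 654, 663 and 595 CPM (637 ± 36.7, SD, n = 3). In raw counts these were 3269 and 186355 with APAP and 7293, 9979 and 8910 with saline. One APAP liver thus lay below the saline range and the other far above it. The fitted log2 fold change of 3.20 (SE 1.23, adjusted p = 0.168) lies between the values with either APAP liver alone. It was 4.18 (adjusted p = 0.00793) without APAP 1 and -1.74 (adjusted p = 0.0666) without APAP 3, so the direction is that of whichever APAP library is kept.

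Of the 7 tested genes known to be male-biased in mouse liver, some were also above the saline range in APAP 3. Mup20, a major urinary protein, was at 97.9 CPM in APAP 1, 1045 CPM in APAP 3 and 90.6, 56.8 and 53.8 CPM in saline. Cyp2d9 was at 73.0 and 271 CPM after APAP against 60.7, 44.6 and 29.1 CPM in controls. Cyp4a12a, Elovl3 and Hsd3b5, also of that list, chosen after their values were seen, showed the same order of the APAP livers. Cyp4a12a was at 0.823 and 24.8 CPM, Elovl3 was at 0.881 and 18.0 CPM, and Hsd3b5 was at 0.118 and 6.74 CPM. The remaining tested genes of the list lay within the saline range in APAP 3. Cyp7b1 was at 2.53 and 26.5 CPM after APAP against 33.3, 27.7 and 15.8 CPM in controls, and Selenbp2 was at 0.705 and 8.72 CPM against 11.9, 6.31 and 0.935 CPM. Of the 9 listed male-biased genes, 7 were tested and 0 were called by edgeR's quasi-likelihood test, beside 7.23% of all genes tested. An unadjusted p of 0.05 with a fold change of at least 1.5 was passed by 4, beside 23.5% of all genes tested. The summed CPM of the 9 was 176 in APAP 1, 1407 in APAP 3 and 101 to 200 in saline, most of the APAP 3 sum being Mup20. In WT1, WT2 and WT3, Cyp4a12a was at 0, 0.465 and 0.134 CPM and Elovl3 at 1.34, 0.664 and 1.07 CPM. Hsd3b5 was at 1.88, 0.465 and 0 CPM there. Elovl3 and Hsd3b5 thus lay within the saline range in APAP 1, where Hsd3b5 had 2 counts, under the floor of 3. Female-biased genes were lower in both APAP livers, with 9 of 11 called, beside 3.53% of all genes tested called lower, and a median log2 fold change of -6.33. The part of sex-biased expression in the Serpina1e level was not tested.

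**Figure D2:**
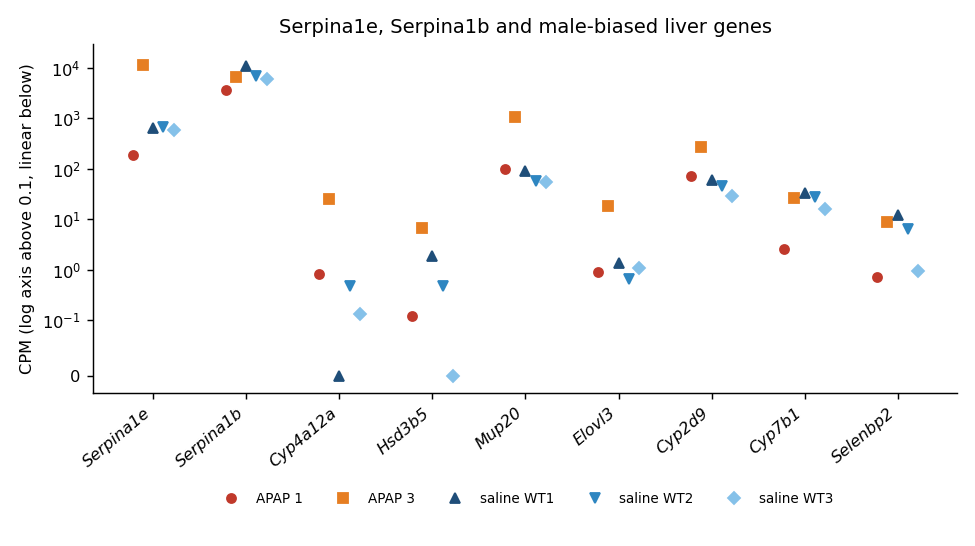
CPM (log axis above 0.1, linear below) of Serpina1e, its paralog Serpina1b and the 7 tested male-biased liver genes, 1 point per library. Serpina1e at 11519 CPM and Mup20 at 1045 CPM are both highest in APAP 3, while Serpina1b at 6691 CPM, Cyp7b1 at 26.5 CPM and Selenbp2 at 8.72 CPM in that library lie within the saline range.

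Summed over the 5 genes, antitrypsin transcripts made up 1.004% and 2.75% of all counts in the APAP livers and 1.90%, 1.55% and 1.33% in WT1, WT2 and WT3. In CPM the sum was 7890 and 25197 with APAP against 24298, 15867 and 14247 with saline. The lowest and the highest library were thus both APAP livers. The fit with the 5 rows replaced by their sum gave a log2 fold change of -0.13 (SE 0.59, adjusted p = 0.918), beside 7.3% of genes called in that table. Serpina1a to Serpina1d without Serpina1e summed to 7697 and 13678 CPM after APAP against 23644, 15205 and 13651 CPM in controls.

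The share of each paralog in the summed counts does not depend on normalization between libraries. In saline the shares were steady, at 43.0 to 45.1% for Serpina1b, 24.9 to 27.0% for Serpina1d, 13.5 to 14.3% for Serpina1c, 11.9 to 13.3% for Serpina1a and 2.69 to 4.18% for Serpina1e. Serpina1e took 2.43% in APAP 1 and 45.7% in APAP 3. Serpina1d took 19.4% and 9.62%, below each saline liver, with a mean difference of -11.4 percentage points (exact permutation test, two-sided p = 0.2, the smallest that 2 against 3 libraries can give). When Serpina1e was taken out of the total, a choice made after the values were seen, both APAP livers had nearly the same makeup. Serpina1d was then 19.9% and 17.7% with APAP against 26.7%, 26.0% and 28.1% with saline, and Serpina1a was 19.0% and 17.4% against 12.2%, 13.8% and 12.97%. The differences were -8.14 and 5.23 percentage points (exact permutation test, two-sided p = 0.2 for each). Serpina1b was 47.1% and 48.9% of that total against 44.8 to 46.4%, and Serpina1c 14.0% and 15.9% against 14.1 to 14.7%. Serpina1a and Serpina1d share 50-base words with other paralogs, so these shares also carry any split of common reads.

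**Figure D3:**
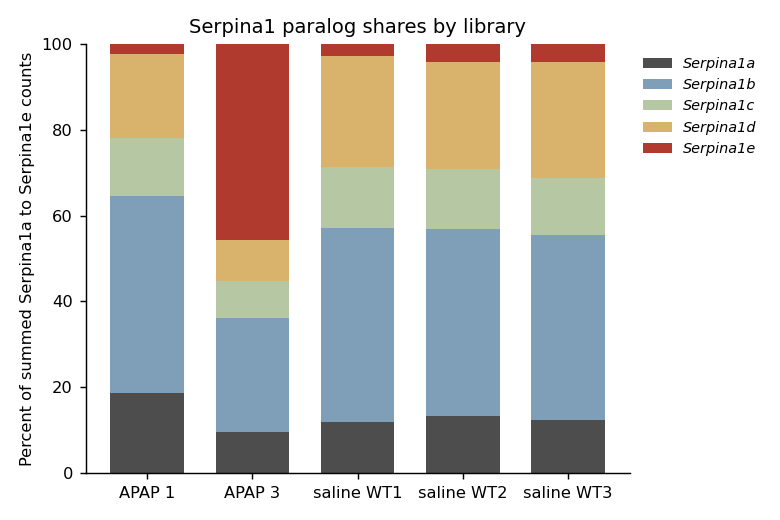
Share of each Serpina1 gene in the summed counts of Serpina1a to Serpina1e (percent), 1 bar per library. Serpina1e fills 45.7% of the bar of APAP 3 and 2.43 to 4.18% of the other bars, and Serpina1d is 24.9 to 27.0% in saline.

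The nearest patterns to the summed Serpina1 counts, by the distance between centred log2 CPM over the 5 libraries, were those of Gm8893, Gm42418 and Serpina12, at distances of 0.199, 0.226 and 0.287. Gm8893 lies within the annotated span of Serpina1b, and 59.0% of its 50-base words were shared with other genes, most of them with Serpina1a (48.0%). It was at 198 and 542 CPM after APAP against 603, 359 and 317 CPM in controls. Its counts came to 2.51% and 2.15% of the summed Serpina1 counts in the APAP livers and to 2.23 to 2.48% in the saline livers. The ratio to the family was thus nearly constant over the 5 libraries. The other 7 Gm-named genes of the cluster that were looked up after the values were seen were at 0 in each library.

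The Serpina3 genes lie further along the chromosome, on the plus strand. Serpina3g spans 104236245 to 104241939, Serpina3k 104338486 to 104346144, Serpina3m 104338486 to 104394257 and Serpina3n 104406729 to 104414329. A transcript of Serpina3m begins at the first base of Serpina3k, and the genes share exons in the annotation. Of 50-base words, 19.1% were shared with other genes for Serpina3m (15.96% with Serpina3k), 14.0% for Serpina3k, 16.02% for Serpina3g and 6.90% for Serpina3n. Each of these shares was lower than that of any Serpina1 gene. Serpina3k was, however, far more abundant than Serpina3m in each library, and 12.8% of its 50-base words were shared with Serpina3m. The counts of Serpina3m can therefore carry reads of Serpina3k. Their part in the Serpina3m level and its change was not tested. The stretches that code for the loop are shown for the 3 abundant genes, because Serpina3n and Serpina3m changed while Serpina3k did not pass the test.
Serpina3k: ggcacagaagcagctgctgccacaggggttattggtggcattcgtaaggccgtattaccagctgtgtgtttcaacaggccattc
Serpina3m: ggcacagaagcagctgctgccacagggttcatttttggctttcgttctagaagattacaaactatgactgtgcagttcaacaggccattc
Serpina3n: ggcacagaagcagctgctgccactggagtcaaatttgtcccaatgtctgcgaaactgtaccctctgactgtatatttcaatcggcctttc
They are the 84 bases at chr12:104345269-104345352, the 90 at chr12:104393769-104393858 and the 90 at chr12:104413448-104413537, each in the last exon and read from the plus strand (GENCODE M21, GRCm38). The first 23 letters are the same in the 3 genes.

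Serpina3n rose in both APAP livers. It was at 2924 and 1345 CPM in APAP 1 and APAP 3 and at 362, 274 and 445 CPM in the saline livers, with means of 2134 ± 1116 (SD, n = 2) and 360 ± 85.4 (SD, n = 3) CPM. The lower APAP library was above each saline library. The log2 fold change was 2.57 (SE 0.41, adjusted p = 0.0180). The call was kept in 8 of 8 alternatives of normalization, test and filter and in 2 of 5 that left out 1 library. It was lost without APAP 1 (log2 fold change 1.90, adjusted p = 0.0803), without WT1 (adjusted p = 0.0598) and without WT2 (adjusted p = 0.0928), with the direction kept each time.

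Serpina3m rose as well. It was at 2468 and 1368 CPM after APAP against 577, 578 and 703 CPM in controls, with means of 1918 ± 778 (SD, n = 2) and 619 ± 72.5 (SD, n = 3) CPM. The groups did not overlap, and as with Serpina3n the higher level was in APAP 1. The log2 fold change was 1.63 (SE 0.33, adjusted p = 0.0362). Of the fits that left out 1 library, the call was kept in the one without APAP 3 (adjusted p = 0.0392) and lost without APAP 1 (log2 fold change 1.15, adjusted p = 0.186), WT1 (0.0889), WT2 (0.153) and WT3 (0.0638).

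Serpina3k, also called contrapsin, was the most abundant Serpina3 gene. It was at 11689 and 13543 CPM after APAP against 9117, 4315 and 7337 CPM in controls. Both APAP libraries were above each saline library, with means of 12616 ± 1312 (SD, n = 2) and 6923 ± 2428 (SD, n = 3) CPM. The log2 fold change of 0.87 (SE 0.43) had an adjusted p of 0.274, and it was called with scaling to library size alone (1.29, adjusted p = 0.0402), a setting that moves the median of all genes up by 0.39. Serpina3g, a member studied mainly in leukocytes, was rare at 6.52 and 19.9 CPM after APAP against 8.34, 6.31 and 7.75 CPM in controls. Its higher value was in APAP 3, unlike Serpina3m and Serpina3n, and the log2 fold change of 0.82 (SE 0.45, adjusted p = 0.318) was -0.20 without APAP 3.

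Ratios within a library compare the paralogs without any scaling between libraries. The ratio of Serpina3n to Serpina3k counts was 0.2501 and 0.0993 in the APAP livers and 0.0397, 0.0636 and 0.0607 in the saline livers. That of Serpina3n to Serpina3m was 1.18 and 0.983 against 0.627, 0.475 and 0.633. In both ratios each APAP liver was above each saline liver (exact permutation test, two-sided p = 0.2, the smallest possible here). The ratio of Serpina3m to Serpina3k overlapped, at 0.211 and 0.101 against 0.0633, 0.134 and 0.0958 (p = 0.4 by the same permutation test). The 4 genes together summed to 17087 and 16276 CPM after APAP against 10065, 5173 and 8493 CPM in controls, or 2.17% and 1.77% of all counts against 0.787%, 0.507% and 0.796%. The fit of the summed row gave a log2 fold change of 1.08 (SE 0.42), with an unadjusted p of 0.0391 and an adjusted p of 0.176, beside 7.22% of genes called in that table. It was called by the likelihood ratio test (adjusted p = 0.0444), the exact test of edgeR (0.0446) and DESeq2 (0.0244).

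Of these genes, Serpina3g and Serpina3n had a promoter entry. A related stretch of 60 bases upstream of both starts is shown, because it holds a site that matches the palindrome of STAT factors, TTCNNNGAA, in one gene and not in the other. The 9 bases in capitals are the aligned letters.
Serpina3g (chr12:104236084-104236143): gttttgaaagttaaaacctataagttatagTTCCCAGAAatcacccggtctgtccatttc
Serpina3n (chr12:104406555-104406614): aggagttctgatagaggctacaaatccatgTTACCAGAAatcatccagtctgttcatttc
The plus strand is printed (GRCm38.p6). TTCNNNGAA was in the promoter of Serpina3g and not in that of Serpina3n, whereas 7.02% of all entries held it. ACANNNTGT, the core of glucocorticoid receptor elements, was in the 250 bases before Serpina1a and Serpina3n and in 5.84% of all entries.

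The genes nearest to Serpina3n in pattern were 6330403L08Rik, Ier3 and Tmprss2, at distances of 0.286, 0.464 and 0.479 over the 5 libraries. Tmprss2, itself a serine protease, was at 79.4 and 24.3 CPM after APAP against 9.32, 6.05 and 9.09 CPM in controls. Ier3, an immediate early gene, was at 14.9 and 9.64 CPM against 1.70, 0.864 and 2.14 CPM.

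Serpina6, the gene of corticosteroid-binding globulin, lies on the minus strand at the other end of the cluster (103646630 to 103657212). It had 94 and 101 counts in the APAP livers and 4597, 4763 and 2737 counts in the saline livers, which is 5.52 and 6.24 CPM against 412, 316 and 183 CPM. The means were 5.88 ± 0.509 (SD, n = 2) and 304 ± 115 (SD, n = 3) CPM. The 2 APAP livers were nearly equal, and the lowest saline liver was far above both. The log2 fold change was -5.69 (SE 0.47, adjusted p = 0.00234). Of its 1556 words of 50 bases, 0 occurred in another gene. Serpina6 was called in all 13 alternatives, with log2 fold changes from -5.95 to -5.27 and adjusted p of at most 0.0228. Sex-linked and female-biased genes separated the same libraries, and their part in the Serpina6 level cannot be told apart from that of APAP.

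**Figure D4:**
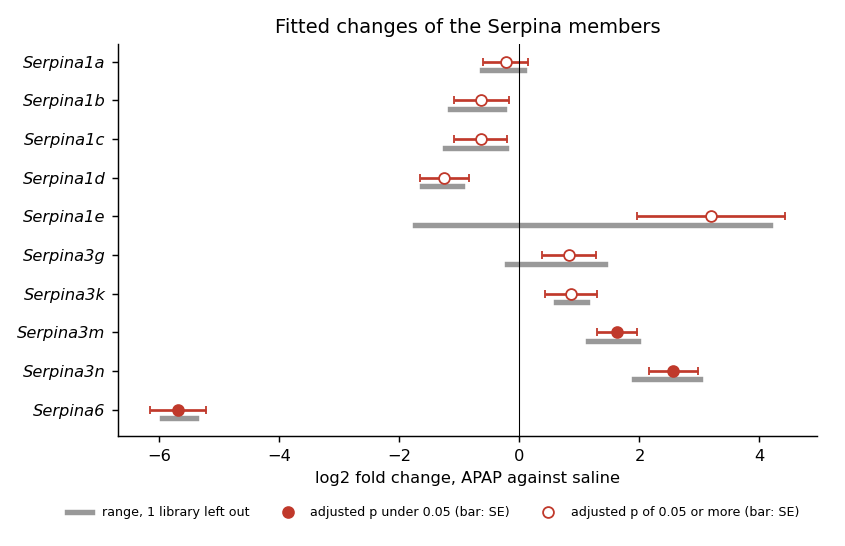
Fitted log2 fold change of each member, APAP against saline, with its SE as the error bar, filled where the adjusted p is under 0.05, and below it in grey the range when 1 library is left out. Serpina6 stays between -5.95 and -5.39 and Serpina3n between 1.90 and 3.01, while Serpina1e runs from -1.74 to 4.18.

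The genes nearest to Serpina6 in pattern were Cyp2c37, Mme and Slc13a3, at distances of 0.682, 0.719 and 0.793. Cyp2c37, a cytochrome P450, was at 30.7 and 18.5 CPM after APAP against 1901, 1255 and 841 CPM in controls. Mme, the metalloprotease neprilysin, was at 1.41 and 3.15 CPM against 140, 98.6 and 52.8 CPM. Genes that handle or answer glucocorticoids, the cargo of Serpina6, were read from a list of 9. Of these, 0 were called by edgeR's quasi-likelihood test, beside 7.23% of all genes tested. An unadjusted p of 0.05 with a fold change of at least 1.5 was passed by 4, beside 23.5% of all genes tested. The fitted log2 fold change was above 0 for 3 of the 9 and below 0 for 6. Tat, the tyrosine aminotransferase of liver, was at 1157 and 1000.04 CPM after APAP against 1815, 2510 and 4043 CPM in controls (adjusted p = 0.101). Hsd11b1, which regenerates active glucocorticoid, was at 296 and 303 CPM against 689, 497 and 505 CPM (adjusted p = 0.0918).

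Levels of different members were compared per kb of exon, with all annotated exons of a gene joined. For Serpina1b these came to 2415 bases, beside 1762 in its longest coding transcript. For Serpina1d and Serpina3k the 2 lengths were equal, so the place of Serpina1b in the order depends on the length used. By mean CPM per kb in saline, the order was Serpina1d (3374), Serpina3k (3366), Serpina1b (3312), Serpina1c (1870), Serpina1a (1230), Serpina1e (394), Serpina3m (360), Serpina3n (175), Serpina6 (172) and Serpina3g (3.55). The first 3 differ by less than their spread over the saline libraries, and so do Serpina3n and Serpina6. In the APAP livers Serpina3k was at 5682 and 6584 CPM per kb, the highest member in APAP 1 and second to Serpina1e in APAP 3, where Serpina1e was at 7124 (119 in APAP 1). Serpina3m was at 1436 and 796 and Serpina3n at 1416 and 652. Serpina6 was at 3.14 and 3.55 CPM per kb, next to Serpina3g at 3.10 and 9.46. All 10 members together made up 3.18% and 4.52% of the counts in the APAP livers and 2.72%, 2.09% and 2.15% in the saline livers.

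Of the 16 other clade A serpin genes, 9 were tested and 1 rose, beside 3.7% of all genes tested. Serpina4-ps1, annotated as a pseudogene that lies between the Serpina1 and the Serpina3 genes, was at 6.05 and 30.2 CPM after APAP against 1.79, 1.93 and 3.14 CPM in controls (log2 fold change 2.98, SE 0.65, adjusted p = 0.0429). Its call was kept without APAP 1 and lost without APAP 3, WT1, WT2 or WT3. Serpina7, thyroxine-binding globulin on the X chromosome, was at 36.5 and 74.0 CPM after APAP against 187, 146 and 863 CPM in controls (log2 fold change -2.85, adjusted p = 0.102). Serpina10, the protein Z-dependent inhibitor, was at 100 and 150 CPM against 239, 178 and 152 CPM (adjusted p = 0.280). The tested Serpina3 relatives outside the members, Serpina3c, Serpina3f, Serpina3h and Serpina3i, had log2 fold changes from 1.04 to 2.35 at levels of at most 13.3 CPM, and none passed edgeR's quasi-likelihood test.

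**Figure D5:**
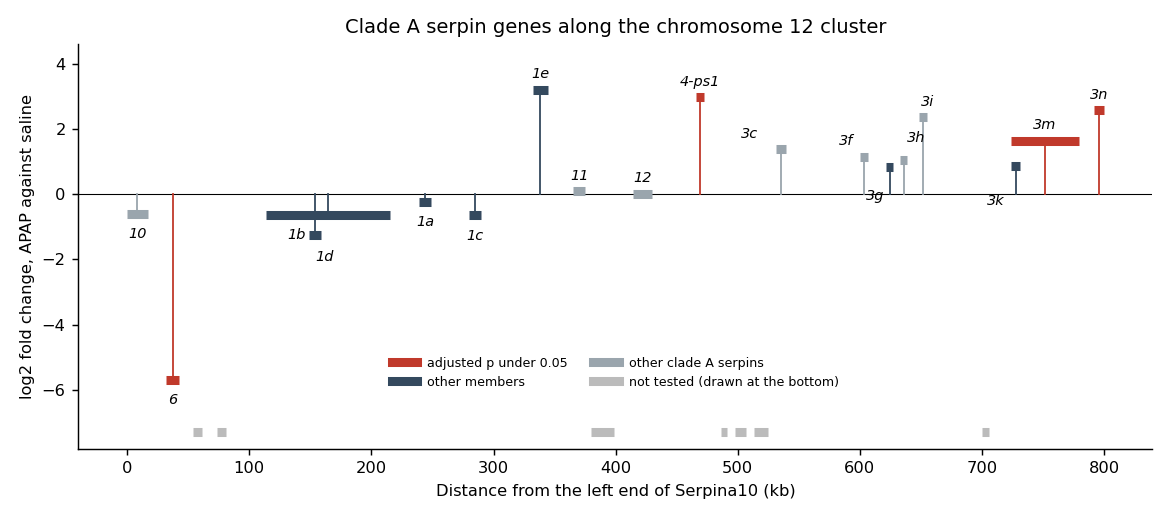
Clade A serpin genes along the chromosome 12 cluster. The horizontal axis is the distance from the left end of Serpina10 in kb, the vertical axis is the fitted log2 fold change, and bars show the annotated span of each gene. The genes called at an adjusted p under 0.05 are Serpina6 at -5.69, Serpina4-ps1 at 2.98, Serpina3m at 1.63 and Serpina3n at 2.57, and they are not next to each other except for Serpina3m and Serpina3n.

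Of the serpins of other clades, Serpinc1, antithrombin, was at 528 and 766 CPM after APAP against 2214, 1546 and 1502 CPM in controls (adjusted p = 0.0546). Serping1, the C1 inhibitor, was at 495 and 551 CPM against 911, 582 and 604 CPM (adjusted p = 0.442). Of 15 tested antiproteases that are no serpins, 1 rose, beside 3.7% of all genes tested. It was the elastase inhibitor Slpi, which went from 0.986, 1.66 and 1.47 CPM in controls to 7.52 and 5.25 CPM with APAP (log2 fold change 2.20, adjusted p = 0.0247). Pzp and Mug1, the abundant alpha-macroglobulins, had log2 fold changes of 0.16 and 0.77 (adjusted p = 0.867 and 0.310).

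The list of proteases held both neutrophil enzymes and plasma zymogens. Of 12 tested, 2 rose and 0 fell, beside 3.7% and 3.53% of all genes tested. The 2 were the neutrophil proteases Prtn3 and Mmp8 (adjusted p = 0.0102 and 0.0337). Prtn3 went from 0.133 to 0.179 CPM in saline to 2.94 and 2.66 CPM, and Mmp8 from 0.0664 to 0.538 CPM to 7.52 and 2.60 CPM. Elane, the elastase that antitrypsin is known for and a gene chosen after its values were seen, was at 0.823 and 0.124 CPM after APAP against 0 to 0.0664 CPM in controls and was not tested. Plg and F2, the hepatocyte zymogens plasminogen and prothrombin, had log2 fold changes of -0.91 and -0.93 (adjusted p = 0.147 and 0.139). Neutrophil markers moved with these proteases. Of 9, 7 were tested and 6 rose, and their summed CPM was 102 and 64.0 in the APAP livers against 1.99 to 5.28 in saline, where 3 to 5 of the 9 were at 0. Of 4 cholangiocyte markers, 1 rose (Sox9), with sums of 70.6 and 42.2 against 6.99 to 10.02 CPM, and of 5 stellate markers 1 rose (Col1a1), with sums of 268 and 334 against 310 to 370 CPM. None of 8 macrophage, 5 endothelial and 2 tested lymphocyte markers passed edgeR's quasi-likelihood test, beside 7.23% of all genes tested. An unadjusted p of 0.05 with a fold change of at least 1.5 was passed by 1 macrophage and 1 endothelial marker, beside 23.5% of all genes tested. The part of these cell types in the Serpina levels was not tested.

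Of 16 regulators known for acute phase or hepatocyte genes, 2 rose and 1 fell, beside 3.7% and 3.53% of all genes tested. Osmr, the oncostatin M receptor, was at 16.6 and 13.4 CPM after APAP against 2.51, 5.18 and 4.54 CPM in controls (log2 fold change 1.87, adjusted p = 0.0286). Socs3, the feedback inhibitor of STAT3 signalling, was at 38.0 and 33.7 CPM against 7.35, 4.78 and 14.1 CPM (log2 fold change 2.03, adjusted p = 0.0374). Cebpa, a hepatocyte transcription factor, fell from 287, 254 and 205 CPM to 109 and 86.1 CPM (log2 fold change -1.35, adjusted p = 0.0330). Hnf4a was at 415 and 706 CPM against 871, 960 and 1424 CPM (adjusted p = 0.172), and Stat3 itself, chosen after its values were seen, was at 101 and 153 CPM against 91.2, 105 and 174 CPM (adjusted p = 0.951). Of 12 genes for the folding, export and uptake of antitrypsin, 0 were called by edgeR's quasi-likelihood test, beside 7.23% of all genes tested. An unadjusted p of 0.05 with a fold change of at least 1.5 was passed by 1, beside 23.5% of all genes tested. The most abundant of the 12, the uptake receptor Lrp1, was at 502 and 528 CPM after APAP against 668, 731 and 684 CPM in controls. The chaperone Canx was at 218 and 342 CPM against 388, 347 and 343 CPM.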

How the data were processed

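Liver RNA was sequenced on an Illumina NovaSeq. The authors aligned reads with HISAT2 and deposited raw read counts per gene; the build is GRCm38 (mm10) per the submitters' processing notes. The strand setting and the handling of reads with several matches are not given in the sources used here. A further 5 columns, of FPKM, were not used. Of 34745 gene identifiers, 34267 were in GENCODE M21, and 27682 had the same position there. Exon lengths and overlaps were taken from GENCODE M21 and can differ from the annotation used for counting.

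The counts were fitted with edgeR 4.0.16 under R 4.3.3 (filterByExpr with a minimum count of 10, TMM, quasi-likelihood test, Benjamini-Hochberg), which left 13734 genes. The common dispersion gave a biological coefficient of variation of 33.3%. TMM factors were 1.27 and 1.09 (APAP) and 0.783 to 0.980 (saline). The design was written for 3 APAP libraries. Alternatives were DESeq2 1.42.0, other tests, scalings and filters, and each library left out. Shares and ratios were compared by exact permutation (scipy 1.17.1). The script was tested on simulated counts. Their dispersion was set below the common dispersion of these data, so that test does not measure error rates here.

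The members and lists were chosen with earlier results of these data known. Named are all members, and up to 4 called genes and the 2 most abundant of each list that is no marker list. The 3 genes nearest in pattern to Serpina3n, Serpina6 and summed Serpina1 are named as well. Exceptions are the sex-linked genes, which are all named, and the female-biased genes, which are given only as counts called and a median. Others are said to be chosen after their values were seen, complete the tested male-biased genes, or are markers or sequence neighbours. One result of the list of serpins of other clades is not reported here.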

Additional observations from a re-analysis of the deposited data

How the results depend on the processing

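The number of members called was 3, and 5 with the likelihood ratio test, 5 with edgeR's exact test and 5 at an unadjusted p under 0.05 with a fold change of at least 1.5, which added Serpina1d and Serpina1e each time (23.5% of all genes passed that last rule). With 1 library left out it was 1 to 3, and it was 1, Serpina6, without WT1 or without WT2. Over all genes, calls numbered 993, and 2093 with DESeq2, 1835 with the likelihood ratio test, 1776 with the exact test and 165 without WT2. Calls among other clade A serpins were 1, and 2 with the likelihood ratio test, the exact test or DESeq2 (adding Serpina7), 3 without the filter and 0 to 1 with 1 library left out. The summed Serpina1 genes had a log2 fold change of -0.13, which was 0.23 with library size only, and -1.21 to 0.48 with 1 library left out, above 0 without APAP 1 and without WT1 (0.14). The summed Serpina3 genes were called with library size only (1.504), the likelihood ratio and exact tests (1.08 in both) and DESeq2 (1.03). Serpina1a turned to 0.16 with library size only. With 1 library left out, Serpina1a ranged from -0.63 to 0.0825 (above 0 without APAP 1), Serpina1e from -1.74 to 4.18 and Serpina3g from -0.20 to 1.42 (both below 0 without APAP 3). Differences in paralog shares (percentage points) turned from 1.495 to -2.82 for Serpina1a as a share of all 10 members, and, as shares of Serpina1a to Serpina1d, from -7.65 to 2.43 for Serpina1b and from -2.80 to 0.479 for Serpina1c. With 1 library left out they ranged from -3.07 (without APAP 1) to 6.06 for Serpina1a, from -17.3 to 2.03 (without APAP 3) for Serpina1b and from -1.25 (without APAP 3) to 42.0 for Serpina1e. The causes were not tested. With 1 APAP library left, the lone library is assumed to vary like the saline group. No paired analysis was possible because the saline columns carry no sample numbers from the labels.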
